A study of Mus musculus with 6 samples.

Results

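The RasGRP family comprises 4 mouse genes, Rasgrp1, Rasgrp2, Rasgrp3 and Rasgrp4, and all 4 were measured among 19938 genes with a probe set of their own. A probe set was taken as a member when the platform annotation pairs it with exactly one of these symbols. Each gene had 1 such probe set, so the choice of the brightest probe set per gene left nothing out. The family was chosen by measured values, namely the per-array signals of these probe sets in Hdac3 knockout (KO) against wild-type (WT) cells. The KO minus WT differences of its members are therefore given as a description with no test.

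The KO group was 3 arrays of CD4+ CD8+ double-positive (DP) thymocytes from mice that the series title names LCK:Hdac3 KO, and the WT group was 3 arrays of DP thymocytes from WT mice. Both groups were C57BL/6, untreated and 3 weeks old. The labels name Lck beside Hdac3 but state neither a Cre transgene nor the deleted part of the gene. RNA was pooled from 2 mice of each genotype, and the design text counts 3 biological replicates but does not assign mice to arrays, so p-values rest on a spread between arrays that may be technical. The tissue is bulk RNA, in which fewer cells of a type and less RNA per cell cannot be told apart.

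RasGRP proteins are guanine nucleotide exchange factors, which load GTP onto Ras or Rap GTPases and so switch them on. They carry a catalytic CDC25 domain, calcium-binding EF hands and a C1 domain. The C1 domain binds diacylglycerol (DAG), the lipid that phospholipase C makes after receptor stimulation, although that of RasGRP2 binds it weakly. RasGRP1 is the member best known in the thymus, where it couples the T cell receptor (TCR) to Ras, RAF, MEK and ERK during positive selection. RasGRP2 acts on Rap1 in platelets and leukocytes, RasGRP3 is known from B cells and endothelium, and RasGRP4 from mast cells and other myeloid cells.

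The arrays behaved alike in scale but not in spread. Array means were 5.99 to 6.01 on the log2 scale in both groups together, while interquartile ranges were 3.06 to 3.25 on KO arrays and 3.29 to 3.49 on WT arrays. Hdac3, the targeted gene, averaged 8.31 ± 0.020 on KO arrays and 9.42 ± 0.020 on WT arrays (SD, n = 3 each), and the deleted part may lie outside its probes. None of 10 measured DP markers was called at a Benjamini-Hochberg adjusted p under 0.05 by limma, and none had an unadjusted p under 0.05. Of all tested probe sets 5.79% were called. The differences of the 10 DP markers ran from -0.16 to 0.22. Rag1, the recombinase gene that DP cells express, averaged 13.01 ± 0.021 on KO arrays and 12.94 ± 0.061 on WT arrays (SD, n = 3 each).

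The members differed in how they stood between genotypes. Rasgrp4 was higher on every KO array than on any WT array, Rasgrp2 was slightly lower on every KO array, and the groups overlapped for Rasgrp1 and Rasgrp3. Of all 23410 probe sets tested, 13.5% lay above WT on every KO array and 16.5% lay below, or 30.0% in either direction. Nothing is read from these counts, since the contrast chose the family.

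**Figure D1:**
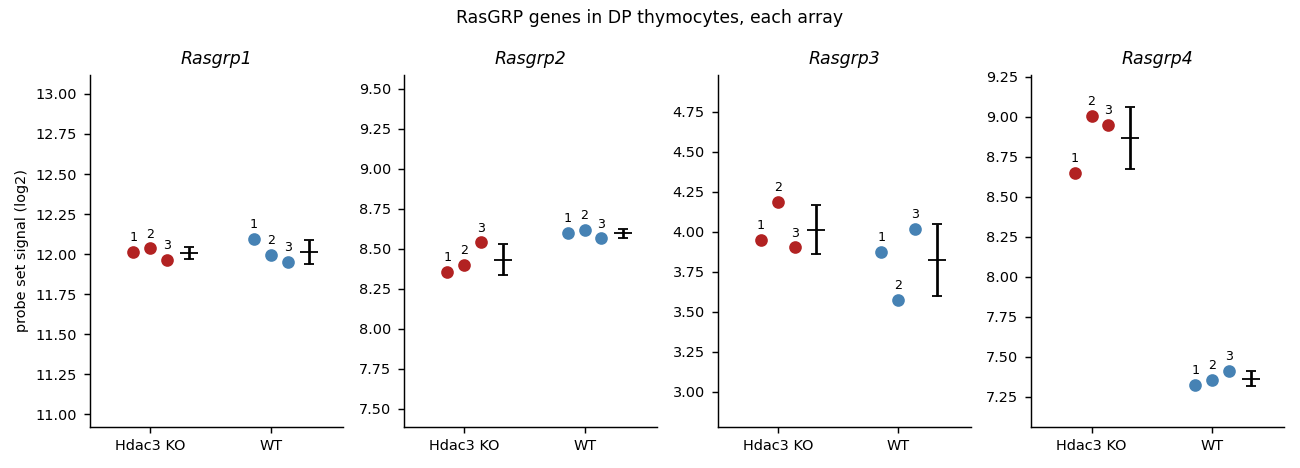
Log2 probe set signal of the 4 RasGRP genes on each of the 3 Hdac3 KO arrays (red, left) and 3 WT arrays (blue, right), numbered by replicate, with mean and SD as black bars; all panels span the same number of log2 units. Rasgrp4 lies between 8.65 and 9.004 on KO arrays and between 7.32 and 7.41 on WT arrays, while the other members shift far less.

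Rasgrp1, the exchange factor that links the TCR to Ras in thymocytes, was level between the genotypes. Its log2 signal was 12.02, 12.03 and 11.96 on KO arrays 1 to 3 and 12.09, 12.00 and 11.95 on WT arrays 1 to 3. The highest and the lowest of the 6 values were both on WT arrays. The means were 12.00 ± 0.038 on KO arrays and 12.01 ± 0.074 on WT arrays (SD, n = 3 each), a difference of -0.009 (SE 0.089). The KO signal was 99.4% of WT.

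Rasgrp2, the calcium-regulated factor for Rap1, had log2 signals of 8.36, 8.40 and 8.54 on KO arrays 1 to 3 and 8.60, 8.62 and 8.56 on WT arrays 1 to 3. Every KO array was below every WT array, by a gap of 0.025 between the nearest pair. The means were 8.43 ± 0.096 on KO arrays and 8.59 ± 0.028 on WT arrays (SD, n = 3 each), a difference of -0.16 (SE 0.092). Probe sets of similar signal, the ninth of 10 equal bins, had a median difference of -0.13. After quantile normalization the Rasgrp2 difference was -0.038.

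Rasgrp3, the family member of B cells and endothelium, was the only one of the 4 below the median signal of all tested probe sets, 5.78. Its log2 signal was 3.95, 4.19 and 3.90 on KO arrays 1 to 3 and 3.88, 3.58 and 4.02 on WT arrays 1 to 3. The highest value was on KO array 2 and the lowest on WT array 2, and the other 4 arrays were interleaved. The means were 4.01 ± 0.15 on KO arrays and 3.82 ± 0.23 on WT arrays (SD, n = 3 each), a difference of 0.19 (SE 0.13). Without WT array 2 the difference was 0.066. No background level of the arrays was used here, so a value this low does not show that the gene is transcribed.

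Rasgrp4, the myeloid member, differed most. Its log2 signal was 8.65, 9.004 and 8.95 on KO arrays 1 to 3 and 7.32, 7.36 and 7.41 on WT arrays 1 to 3. The lowest KO array was 1.23 above the highest WT array, a gap larger than the range within either group, 0.36 among KO arrays and 0.090 among WT arrays. The means were 8.87 ± 0.19 on KO arrays and 7.36 ± 0.045 on WT arrays (SD, n = 3 each), a difference of 1.50 (SE 0.11). The KO signal was 283.1% of WT. Probe sets of similar signal had a median difference of -0.17, with quartiles of -0.29 and -0.038, so Rasgrp4 ran against the shift of its signal bin. Its difference was 1.62 after quantile normalization and 1.63 after cyclic loess normalization.

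**Figure D2:**
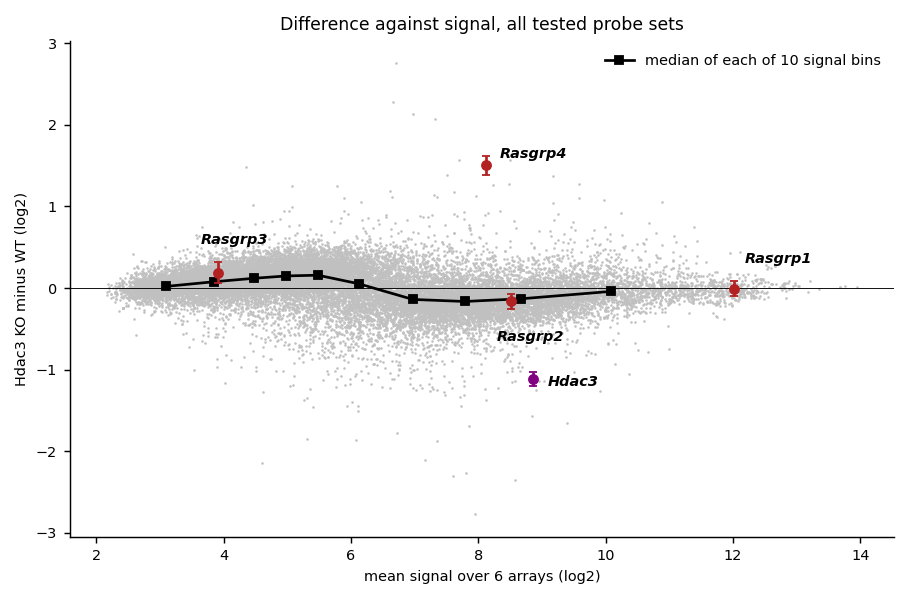
Hdac3 KO minus WT difference (log2) against mean signal over 6 arrays (log2) for all 23410 tested probe sets (grey), with the median of each of 10 signal bins (black) and the 4 RasGRP genes (red) and Hdac3 (purple) with SE. Rasgrp4 stands at 1.50 where the bin median is -0.17, and Rasgrp2 at -0.16 where it is -0.13.

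Since Rasgrp4 is known from myeloid cells, the markers of other cell types were read on the same arrays. The 12 neutrophil markers had a summed linear signal of 306 to 833 on KO arrays and 275 to 309 on WT arrays, and KO array 2 alone held the 833. S100a8, a calcium-binding protein of neutrophils, had log2 signals of 4.55, 7.12 and 5.02 on KO arrays 1 to 3 and 4.67, 4.70 and 4.36 on WT arrays 1 to 3. Rasgrp4 stood at 8.65, 9.004 and 8.95 on KO arrays 1 to 3, where the neutrophil sums were 306, 833 and 322. Its difference was 1.43 without KO array 2. All 12 neutrophil markers had positive differences, from 0.14 to 0.99 with a median of 0.42. Their median above the WT mean was 0.030, 0.997 and 0.078 on KO arrays 1 to 3, and 0.090 on WT array 3. All probe sets in the signal bins near 3.09 to 5.48 had median differences of 0.02 to 0.16. For 2 of the 12, among them Camp (0.45), every KO array was above every WT array. The same held for 13.5% of all tested probe sets, so nothing is read from this count.

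Mast cell and basophil markers overlapped between the groups in summed signal. The summed signal of 12 such markers was 348 to 392 on KO arrays and 305 to 362 on WT arrays, none was called, and 1 had an unadjusted p under 0.05 (limma). The mast cell carboxypeptidase gene Cpa3 averaged 3.14 ± 0.059 on KO arrays and 3.16 ± 0.0081 on WT arrays, and the IgE receptor gene Fcer1a 3.10 ± 0.093 on KO arrays and 3.03 ± 0.017 on WT arrays (SD, n = 3 each). Both are dim. The brighter markers Gata2, Kit and Hdc differed by 0.25, 0.23 and 0.35. Tpsab1 differed by 0.24, with every KO array above every WT array. The 12 differences ran from -0.06 to 0.35 with a median of 0.09, and only those of Cpa3 and Ms4a2 were negative. The 11 macrophage and monocyte markers summed to 371 to 474 on KO arrays and 335 to 381 on WT arrays. The 10 dendritic cell markers summed to 316 to 330 on KO arrays and 271 to 295 on WT arrays, and did not overlap. Their median difference was 0.17, where all probe sets in the signal bins near 4.47 to 5.48 had medians of 0.12 to 0.16. An array gives no marker a value of 0, and the part of these cells in the Rasgrp4 difference was not tested beyond these values.

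The other lists overlapped in summed signal. The 11 B cell markers summed to 444 to 470 on KO arrays and 426 to 478 on WT arrays, and the 5 platelet markers to 241 to 310 on KO arrays and 210 to 274 on WT arrays. The 8 NK cell markers summed to 187 to 244 on KO arrays and 194 to 211 on WT arrays, and the 8 thymic stroma markers to 370 to 401 on KO arrays and 316 to 380 on WT arrays. The 4 erythroid markers summed to 150 to 176 on KO arrays and 115 to 152 on WT arrays. Of 81 measured markers in these 9 lists, 2 were called, the erythroid factor gene Klf1 (difference 0.44) and the epithelial adhesion gene Epcam (difference -0.37). Of all tested probe sets 5.79% were called. In the signal bins near 3.85 to 5.48 the share was 1.41% to 5.38%, so nothing is read from this count.

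**Figure D3:**
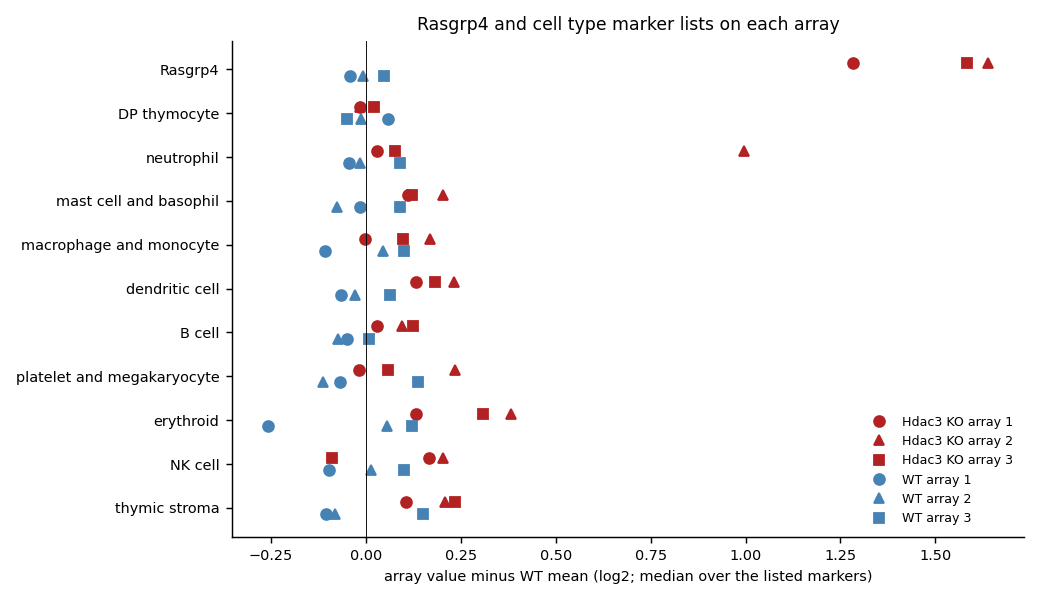
Value of each array minus the WT mean (log2) for Rasgrp4 and, as the median over the listed markers, for 10 cell type marker lists; red symbols are KO arrays and blue symbols WT arrays, with a shape for each replicate number. For neutrophil markers KO array 2 stands at 0.997. For Rasgrp4 all 3 KO arrays lie above the WT arrays.

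The genes whose pattern over the 6 arrays was most like that of Rasgrp4 were sought by a distance, the root mean square difference between values centred on each gene's mean, among 18004 named protein-coding genes. They were the ankyrin repeat gene Ankrd6 at 0.13, the tetraspanin Cd53 at 0.15, the ERK phosphatase Dusp5 at 0.15, the cytokine gene Tnf at 0.19 and the myosin gene Myo1f at 0.22. Tnf had log2 signals of 7.13, 7.35 and 7.15 on KO arrays 1 to 3 and 5.86, 5.97 and 6.23 on WT arrays 1 to 3. These genes were chosen for their likeness to a pattern set by genotype, so no test of their differences supports that likeness. Dusp5 is also on a pathway list, where its difference was counted with the others.

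The chromosomal neighbours of the members were compared next, as they had no part in the choice of the family. In the RefSeq gene order of GRCm38.p6, Rasgrp4 on chromosome 7 lies between Ryr1 and Fam98c, Rasgrp1 on chromosome 2 between Fam98b and Thbs1, and Rasgrp3 on chromosome 17 between Ltbp1 and Fam98a, counting genes with a probe set of their own. A gene of the Fam98 family thus adjoins each of these 3 members, and a gene of the Spred family of Ras-ERK inhibitors lies within 3 such genes of Rasgrp4 (Spred3) and of Rasgrp1 (Spred1). Rasgrp2 on chromosome 19 lies between Pygm and Nrxn2 and has neither within that distance.

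None of the 6 neighbours of Rasgrp4 was called (limma), where 5.79% of all tested probe sets were, and 2 had an unadjusted p under 0.05. Their differences ran from -0.26 for Map4k1, a kinase that restrains TCR signalling, to 0.31 for Spred3, against 1.50 for Rasgrp4. Ryr1, on one side, differed by 0.27 (SE 0.14), and Fam98c, on the other, by 0.11 (SE 0.11). Of 6 neighbours of Rasgrp1, only the microRNA gene Mir674 was called (difference 0.54, SE 0.11, limma adjusted p = 0.023). None of 6 neighbours of Rasgrp2 and none of 6 of Rasgrp3 was called (limma, 3 and 2 with an unadjusted p under 0.05). Slc22a12, a urate transporter gene on the far side of Nrxn2 from Rasgrp2, had a difference of 0.53 that did not pass (limma adjusted p = 0.052).

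The pathway around RasGRP was described by 8 lists with 136 genes, of which 121 had a probe set of their own. Of these 121, 9 rose and 14 fell, or 19.0%, where 5.79% of all probe sets passed the same limma test (1355 of 23410), 1.75% upward and 4.04% downward. Of the 121, 91 lay above the median signal of all tested probe sets. Above that signal 24.2% of pathway genes and 9.06% of all probe sets were called. Pathway genes stood by their brightest probe set, whereas the shares of all count every probe set. The lists were chosen with earlier results of these data known, so the shares are only a description. The median difference of the pathway genes was -0.03, close to the 0.02 of all probe sets. Without KO arrays 1, 2 and 3 in turn 13, 11 and 12 pathway genes were called, and without WT arrays 1, 2 and 3 in turn 11, 12 and 21. After median centring, which lowered the median difference of all probe sets to -0.08, 4 were higher and 20 lower, after quantile normalization 9 and 10, and after cyclic loess normalization 11 and 10. The other 15 listed genes were not analysed here.

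**Figure D4:**
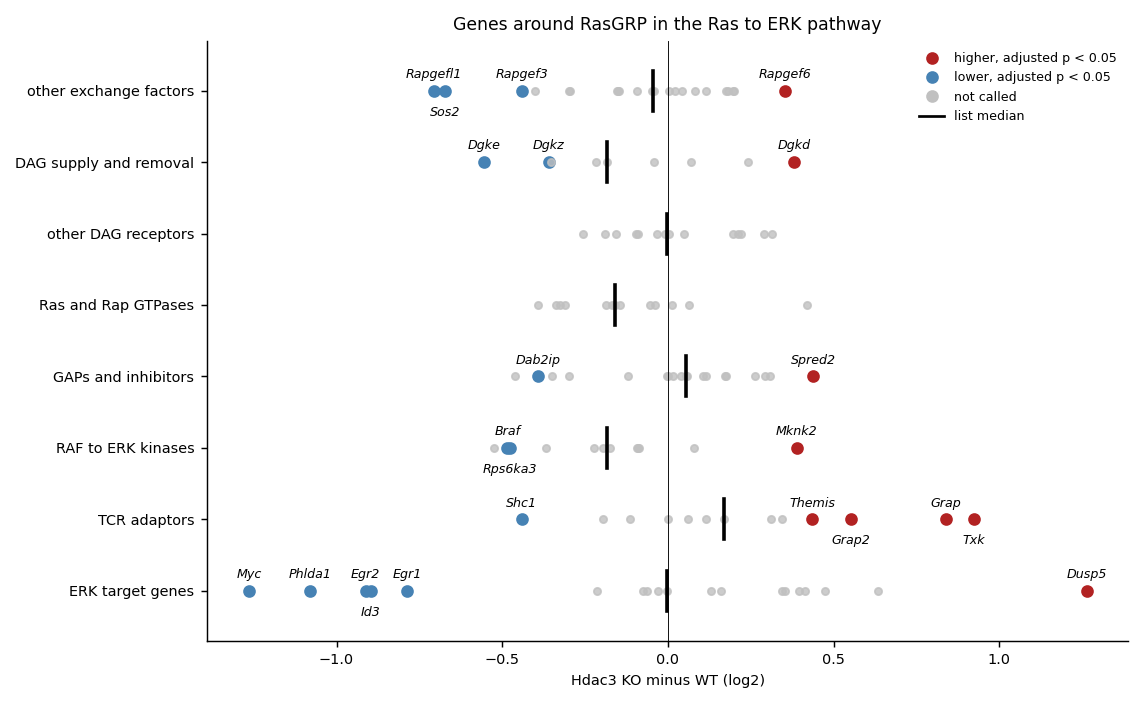
Hdac3 KO minus WT difference (log2) of each of 121 measured pathway genes, 1 row per list, with genes called higher in red, called lower in blue and not called in grey, and the list median as a black bar. TCR adaptors hold 4 genes called higher and 1 lower, ERK target genes 1 higher and 5 lower, and the other DAG receptors and the GTPases none.

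Upstream of the RasGRP proteins stand the TCR-proximal kinases and adaptors, of which 4 of 13 rose and 1 fell, with a median difference of 0.17. Txk, a TEC family kinase of T cells, had log2 signals of 10.70, 10.78 and 10.64 on KO arrays 1 to 3 and 9.86, 9.73 and 9.75 on WT arrays 1 to 3, and rose by 0.92 (SE 0.092, limma adjusted p = 0.0011). Grap, a GRB2-related adaptor, had 9.55, 9.64 and 9.61 on KO arrays 1 to 3 and 8.75, 8.77 and 8.77 on WT arrays 1 to 3, and rose by 0.84 (SE 0.086, limma adjusted p = 0.0013). Neither gene's groups overlapped, and both calls held whichever array was left out. Grap2, the adaptor GADS that joins LAT to SLP-76, rose by 0.55 and its call also held whichever array was left out, while the selection adaptor Themis rose by 0.43 and Shc1, an adaptor of receptor kinases, fell by 0.44. When each array was dropped in turn, Themis passed once, without WT array 1 (0.36 to 0.53, highest limma adjusted p = 0.14), and Shc1 once, without WT array 3 (-0.49 to -0.40, highest limma adjusted p = 0.10). Lat, which recruits phospholipase C gamma, averaged 11.98 on KO arrays and 11.92 on WT arrays, a difference of 0.06.

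Genes that set the DAG level moved in both directions, with 1 of 9 higher and 2 lower. Plcg1, the phospholipase that makes DAG after TCR stimulation, differed by -0.04, and Dgka, a DAG kinase that limits RasGRP1 in T cells, by 0.07. Neither passed (limma adjusted p = 0.84 and 0.71). Dgke, which phosphorylates DAG, fell by 0.56 (SE 0.098, limma adjusted p = 0.014) and Dgkd, another DAG kinase, rose by 0.38 (SE 0.091, limma adjusted p = 0.044). The call of Dgke was lost without KO array 2 or 3 or WT array 1 (difference over the 6 fits -0.61 to -0.50, highest limma adjusted p = 0.058), and that of Dgkd whichever array was left out (0.35 to 0.43, highest limma adjusted p = 0.13).

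Dgkz, the zeta DAG kinase and a known limit on RasGRP1 signalling, gave opposite answers from its 2 probe sets. The brighter had log2 signals of 10.15, 10.11 and 10.19 on KO arrays 1 to 3 and 10.58, 10.43 and 10.53 on WT arrays 1 to 3, a fall of 0.36 (limma adjusted p = 0.048). The dimmer had 6.07, 6.22 and 6.14 on KO arrays 1 to 3 and 5.61, 5.76 and 5.64 on WT arrays 1 to 3, a rise of 0.47 (limma adjusted p = 0.021). The groups overlapped for neither. The call of the brighter probe set was lost whichever array was left out (-0.40 to -0.33, highest limma adjusted p = 0.15), and the parts of the transcripts that each probe set covers were not analysed here.

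No other DAG receptor passed among 14 measured, and 4 had an unadjusted p under 0.05 (limma). The nearest were Prkcq, protein kinase C theta of T cells, with a difference of 0.31 (limma adjusted p = 0.061), and Prkd3, a protein kinase D, with -0.26 (limma adjusted p = 0.12). Prkcq passed in 5 of 17 alternative settings, among them cyclic loess normalization (0.39). It passed in none of the 6 leave-one-out fits (0.30 to 0.33, highest limma adjusted p = 0.16).

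Among the other exchange factors with a CDC25-type domain or a relation to one, 1 of 22 rose and 3 fell, with a median difference of -0.04. Sos2, a Ras exchange factor recruited by GRB2, had log2 signals of 7.29, 7.27 and 7.31 on KO arrays 1 to 3 and 8.13, 7.80 and 7.96 on WT arrays 1 to 3, and fell by 0.67 (SE 0.10, limma adjusted p = 0.0074). Every KO array was below every WT array, and the call held whichever array was left out but not after quantile normalization without KO array 2 (-0.56, limma adjusted p = 0.056). Its paralogue Sos1 differed by -0.15 and did not pass (limma adjusted p = 0.36). Rapgefl1, related to Rap exchange factors, fell by 0.71 and Rapgef3, the cAMP-activated Rap exchange factor EPAC1, by 0.44, while Rapgef6, another Rap exchange factor, rose by 0.35. Rapgefl1 was not called without KO array 1 or 2 or WT array 1 (-0.85 to -0.61, highest limma adjusted p = 0.077). Rapgef3 was called in only the fit without WT array 3 (-0.49 to -0.41, highest limma adjusted p = 0.092), and Rapgef6 in none of the 6 (0.32 to 0.39, highest limma adjusted p = 0.14).

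The GTPases that these factors load did not pass in any of 13 cases, with 5 at an unadjusted p under 0.05 (limma) and a median difference of -0.16. Rala, a Ras-like GTPase, and Rit1, a relative of Ras, had the smallest p, with differences of -0.34 and -0.39 (limma adjusted p = 0.051 and 0.075), and each passed in 4 of 17 alternative settings. Nras, a classical Ras gene, averaged 9.36 on KO arrays and 9.54 on WT arrays, a difference of -0.19. Of 19 GTPase-activating proteins and inhibitors, Spred2, which blocks RAF activation, rose by 0.44 and Dab2ip, a Ras GTPase-activating protein, fell by 0.39. A further probe set of Spred2 rose by 0.34. With single arrays dropped, Spred2 was called only without WT array 3 (0.39 to 0.47, highest limma adjusted p = 0.10) and Dab2ip in none of the 6 (-0.44 to -0.34, highest limma adjusted p = 0.13). Spred1, which neighbours Rasgrp1, differed by -0.12.

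Downstream, 1 of 12 genes of the RAF to ERK cascade and its kinases rose and 2 fell, with a median difference of -0.19. Braf, a RAF kinase, fell by 0.48 and Rps6ka3, the ERK-activated kinase RSK2, by 0.48, while Mknk2, a kinase of the translation factor eIF4E, rose by 0.39. Map2k1 and Map2k2, the MEK genes, differed by -0.09 and -0.17 and did not pass (limma adjusted p = 0.58 and 0.31). Braf was called without KO array 1 and without WT array 3 and was not called without any of the other 4 arrays (-0.54 to -0.45, highest limma adjusted p = 0.088). Rps6ka3 (-0.58 to -0.42) and Mknk2 (0.35 to 0.43) were each called in only the fit without WT array 3 (highest limma adjusted p = 0.13 for both).

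Among 19 genes that ERK signals induce, 1 rose and 5 fell, with a median difference of -0.003. An unadjusted p under 0.05 was reached by 12 of the 19 (limma), and every KO array was above every WT array for 7 and below for 5. Among all 23410 tested probe sets, 13.5% lay above WT on every KO array and 16.5% lay below. Myc, the growth-promoting transcription factor, had log2 signals of 6.84, 6.18 and 6.81 on KO arrays 1 to 3 and 7.95, 7.91 and 7.76 on WT arrays 1 to 3, and fell by 1.26 (SE 0.17, limma adjusted p = 0.0035). Phlda1, a pleckstrin homology-like protein, had 7.17, 7.10 and 7.35 on KO arrays 1 to 3 and 8.30, 8.13 and 8.43 on WT arrays 1 to 3, and fell by 1.08 (SE 0.11, limma adjusted p = 0.0013). The groups overlapped for neither gene. Egr1, Egr2 and Id3, transcriptional regulators of positive selection, fell by 0.79, 0.91 and 0.90, while Dusp5, the nuclear ERK phosphatase, rose by 1.26. All 6 calls held whichever array was left out. Dusp6, the cytoplasmic ERK phosphatase, differed by -0.21 and Dusp4 by 0.34, and neither passed (limma adjusted p = 0.34 and 0.094). Positive differences that did not pass were those of the cyclin gene Ccnd1 (0.63), Cd5 (0.47) and Cd69 (0.35), surface proteins of TCR-stimulated cells, and the ERK-induced genes Ier2 (0.41) and Etv4 (0.40), with limma adjusted p = 0.068, 0.093, 0.17, 0.052 and 0.089. No relation between ERK targets and the RasGRP genes was tested.

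**Figure D5:**
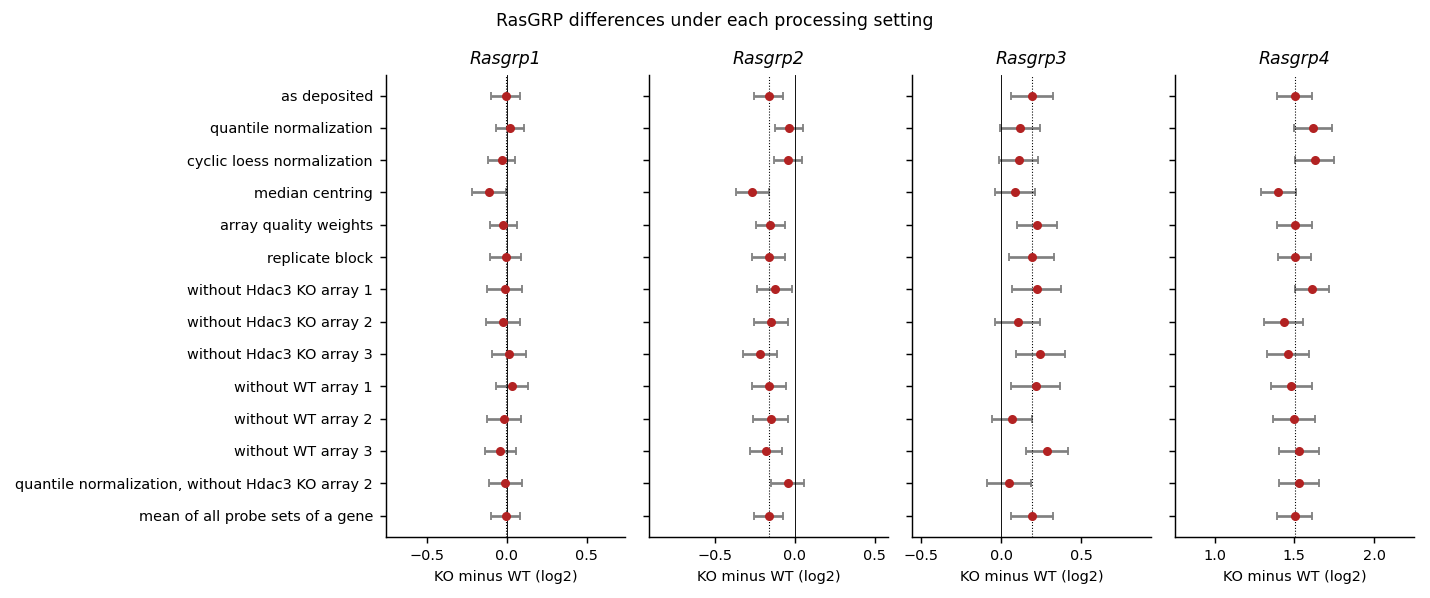
Hdac3 KO minus WT difference (log2) of each RasGRP gene with its SE under the values as deposited (dotted line) and 13 alternative settings, 1 row per setting. Rasgrp4 stays between 1.40 and 1.63, and Rasgrp1 between -0.11 and 0.03.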

How the data were processed

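The authors deposited 1 log2 signal per probe set and array, a scale read from the values, which span 1.94 to 13.98. Per the labels' protocols, sense-strand target was prepared with an Affymetrix kit. How background, normalization and probe set summary were handled is not given in the sources.

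Of 28853 probe sets, 23410 had at least 1 gene in the platform annotation and were fitted by genotype with limma 3.58.1 (lmFit and eBayes under R 4.3.3), with two-sided p-values and Benjamini-Hochberg adjustment over all 23410. The fit was also run on simulated data with independent Gaussian noise. These held no shift with signal and no outlying array, so they do not test the fit for either. SEs come from this fit. No share of all probe sets with an unadjusted p under 0.05 is given here, so nothing is read from counts at that threshold. An exact permutation test of 3 against 3 arrays cannot go below 0.1, so none was run. The number of arrays limits the precision, with a median SE of 0.11.

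Members and gene lists were chosen with earlier results of these data known. Genes named were the members, Hdac3, every called gene of a pathway list or the 2 with the smallest p, 3 neighbours on each side and the 5 genes most like a member that differed by over 0.5. Other names, such as further list genes given as values, were chosen after their values were seen. For a gene with several probe sets the brightest stood. Alternatives covered normalization, filters, variance priors, array weights, a replicate block and each array left out.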

Additional observations from a re-analysis of the deposited data

How the results depend on the processing

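Rasgrp4 differed by 1.40 to 1.63 under the 13 alternatives and by 1.43 to 1.61 over the leave-one-out fits. With 1 probe set per member and equal groups, averaging probe sets and the replicate block could not change a member's difference. The Rasgrp4 groups lay 1.23 apart, so leaving 1 array out could not reverse its direction. Rasgrp2 moved by more than its replicate SD under quantile normalization (-0.038), cyclic loess normalization (-0.044), median centring (-0.27) and quantile normalization without KO array 2 (-0.043), and Rasgrp1 under median centring (-0.11), which shifted all probe sets. Rasgrp3 stayed between 0.048 and 0.29. Over the leave-one-out fits Rasgrp1 ran from -0.041 to 0.031, Rasgrp2 from -0.22 to -0.13 and Rasgrp3 from 0.066 to 0.29. Probe sets called numbered 1355, against 2060 with median centring (197 higher, 1863 lower), 2285 with array weights, 437 with quantile normalization without KO array 2, and 474 to 1946 with 1 array left out (without KO arrays 1, 2 and 3 in turn 826, 474 and 489, without WT arrays 1, 2 and 3 in turn 517, 505 and 1946). The deposited scale gave 409 higher and 946 lower, while 517 and 726 followed quantile normalization restricted to probe sets above the median signal. The pathway count of 23 was 12 with quantile normalization without KO array 2, and 11 to 21 with 1 array left out. Averaging the probe sets of a gene turned Dgkz to 0.056, since its 2 probe sets oppose each other. For the other counts and moves the cause was not tested. Deviations of same-numbered KO and WT arrays had correlations of 0.24, -0.063 and -0.030. Those of differently numbered arrays ran from -0.33 (KO array 1 with WT array 3) to 0.31 (KO array 2 with WT array 3). The numbers were therefore not taken as pairs. With the replicate block 1162 probe sets and 18 pathway genes were called, and Rasgrp4 differed by 1.50 (SE 0.11). Array background was not given, so differences of dim probe sets such as that of Rasgrp3 are the least certain.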
